A study of Mus musculus with 4 samples.

Results

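Genes commonly read as marks of fat cells, 10 in all, were followed in mouse liver RNA: Adipoq, Lep, Retn, Cfd, Plin1, Plin4, Cidec, Cidea, Fabp4 and Lipe. Every measured probe whose name in the files is one of these symbols or an older symbol of the same gene was taken, which gave 15 probes of 10 genes among 41174 probes on the array. Plin1 is named Plin there, Plin4 is named S3-12, and 1 of the 3 Lipe probes carries the clone name 4933403G17Rik. The livers came from 4 female mice of the strain labelled BALBc, 20 days after inoculation: 2 control mice and 2 mice of a group labelled LB1, whose sample titles read "stuff". The series is about the effect of a Lactobacillus from ostrich on body weight, gut microbes and metabolism, and the labels used here say neither what LB1 stands for nor what the control mice received. Each mouse gave 1 Agilent array with 1 dye. LB1 replicate 1 shared a slide and scan with control replicate 1, and LB1 replicate 2 shared the other slide with control replicate 2.

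A white fat cell stores triglyceride in a single large lipid droplet and secretes hormones, among them adiponectin, leptin, resistin in rodents, and the complement protease adipsin. Its droplet is coated by perilipin 1 and enlarged by proteins of the CIDE family, and hormone-sensitive lipase releases fatty acids from it. Hepatocytes store lipid too, in smaller droplets coated mainly by perilipin 2 and perilipin 5. In steatosis they can switch on droplet genes better known from fat, such as Cidec and Plin4, without the fat cell hormones. The hormone genes and the droplet genes are therefore described apart.

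The array reads each gene through probes of 60 bases, and the sequences below are those of the probes on which the account turns. Adipoq is shown as the fat cell hormone that was read on 3 of 4 arrays, the Fabp4 and Lipe pairs because probes of 1 gene differed, and the Retn pair because its members overlap. The capitals mark the 22 bases that both Retn probes share. The number after a gene is the position of the probe in its transcript, as the files give it. Positions on the genome are those of the files, on mm9. The Adipoq probe lies at chr16:23157576-23157635, the Fabp4 probe at 75 lies at chr3:10208442-10208501, and the Lipe probe at 2231 lies at chr7:26165828-26165887. The files place 4 probes over longer spans than their 60 bases, so that each crosses an intron: Fabp4 at 391 spans 730 bases, chr3:10204533-10205262, Retn at 156 and 194 span 822 bases each, chr8:3656107-3656928 and chr8:3656145-3656966, and Lipe at 2085 spans 2254 bases, chr7:26165974-26168227.
Adipoq (766): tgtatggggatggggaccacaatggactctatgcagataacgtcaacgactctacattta
Fabp4 (75): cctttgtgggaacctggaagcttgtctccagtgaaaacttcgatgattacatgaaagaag
Fabp4 (391): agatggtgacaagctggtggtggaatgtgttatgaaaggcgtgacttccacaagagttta
Retn (156): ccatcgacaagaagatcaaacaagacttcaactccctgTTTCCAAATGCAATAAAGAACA
Retn (194): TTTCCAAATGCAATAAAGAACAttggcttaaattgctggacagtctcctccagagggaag
Lipe (2085): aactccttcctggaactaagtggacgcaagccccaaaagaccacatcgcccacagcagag
Lipe (2231): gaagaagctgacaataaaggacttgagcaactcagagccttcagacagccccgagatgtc

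The arrays differed in brightness along with the groups. The 75th percentile of the signal was 411 and 415 on the control arrays and 147 and 80.8 on the LB1 arrays, a ratio of 3.79 between the group means on the log scale. Signals below are the processed signal of the array, in scanner units. Differences are LB1 minus control on the log2 scale after each array's 75th percentile was subtracted, with their standard error (SE, n = 2 per group) and an adjusted p from limma, corrected by Benjamini-Hochberg over 22969 tested probes. A probe entered the test where both arrays of either group had it well above background, and a call is an adjusted p under 0.05. Where a probe entered through 1 group alone, the filter favours a difference towards that group. The lowest signal well above background was 10.1, 9.80, 11.8 and 7.98 on control 1, control 2, LB1 1 and LB1 2. The number of arrays limits the precision: with 2 against 2, an exact permutation test of 1 probe cannot give a 2-sided p below 0.333. Calls also rested on both controls: 7437 probes were called in all, 139 without control 1 and 1 without control 2. Of the genes called in the lists below, 7 mesothelial, 2 muscle and 1 pancreatic gene were called without control 1, and 0 without control 2. Brightness and group cannot be told apart here, and on the scaled values the median of the 153 negative control spots was itself higher in LB1 by 1.86.

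Of the 15 probes, 6 stood well above background on all 4 arrays, 3 on some and 6 on none, and no probe was saturated. Lep, Retn, Cfd and Plin1 were not well above background on any array, whereas Plin4, Cidec, Fabp4 and Lipe had at least 1 probe above it on all 4. Adipoq was read on 3 arrays and Cidea on 1. Of the 8 probes tested, 2 were called, beside 32.4% of all tested probes: the Fabp4 probe at 75 was lower in LB1 and the Lipe probe at 2085 was higher. The Fabp4 probe at 75 entered the test through the control arrays alone, where it is high. With each gene represented by its brightest tested probe, 1 of 5 tested genes was called by limma, beside 31.5% of all tested genes: Lipe was higher (21.7% of all) and 0 were lower (9.78% of all). At an unadjusted p under 0.05 the counts were also 1 and 0, and the methods' t-test gave 0 in either direction after adjustment.

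**Figure D1:**
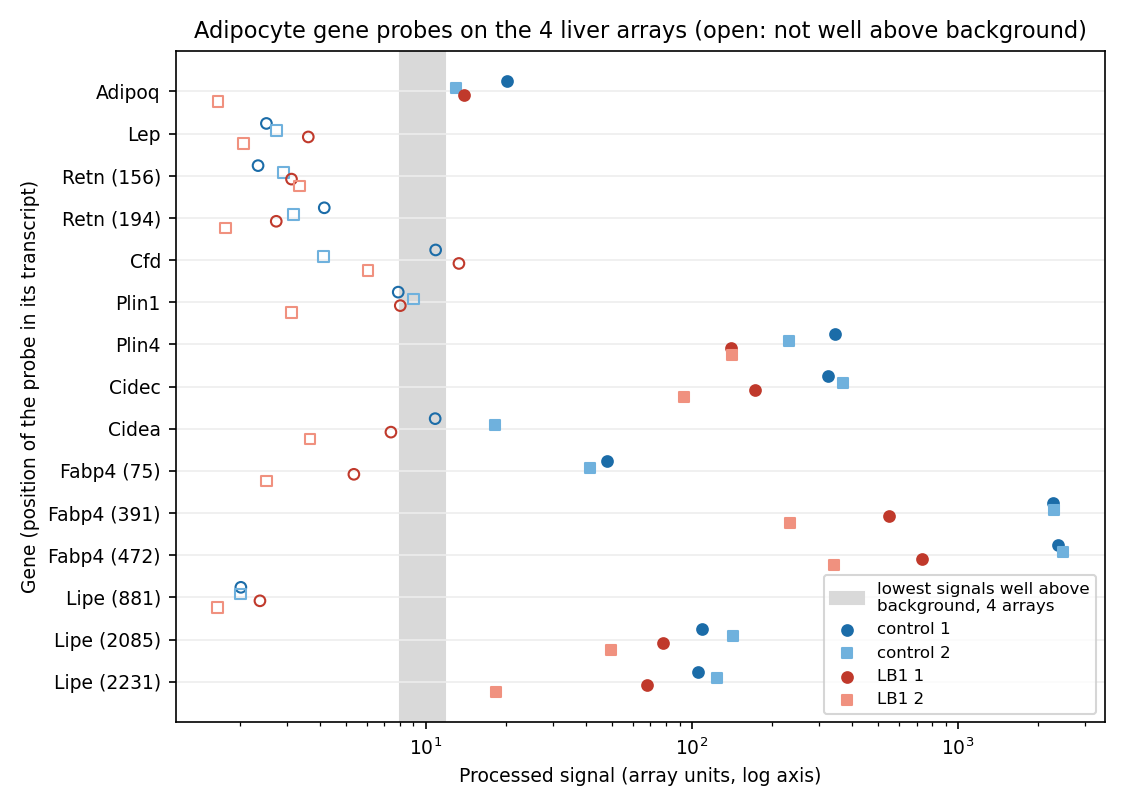
Processed signal (log axis, scanner units) of the 15 probes of the 10 adipocyte genes on each of the 4 arrays; filled symbols are well above background and open ones are not, and the grey band spans the lowest signals well above background, 7.98 to 11.8. Plin4, Cidec, the Fabp4 probes at 391 and 472 and the Lipe probes at 2085 and 2231 lie to the right of the band on every array, and Lep and Retn to its left on every array.

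Among the secreted proteins, Adipoq encodes adiponectin, the most abundant hormone of fat cells, which acts on the liver through Adipor1 and Adipor2. Its signal was 20.2 on control 1, 13.1 on control 2, 13.9 on LB1 1 and 1.66 on LB1 2. Control 1 was highest, and LB1 1 lay between the controls. On the LB1 2 array the probe was not well above background and exceeded 8 of the 153 negative control spots, against 152, 152 and 151 on the other arrays. After scaling, LB1 1 was highest and LB1 2 lowest, with both controls between them. The difference was 0.16 (SE 0.76, adjusted p = 0.878 by limma, n = 2 per group), 0.95 within slide 1 and -0.62 within slide 2, and the exact permutation p was 1. Its sign followed the setting: with quantile normalization it was -1.13 and with the normexp background correction 1.38.

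Lep encodes leptin, the hormone that reports fat stores to the brain. It is printed 10 times on the array, and none of its spots stood well above background on any array. Its mean signals were 2.52, 2.75, 3.62 and 2.07 on control 1, control 2, LB1 1 and LB1 2, at the level of the negative control spots, whose medians were 2.59, 2.67, 3.03 and 2.08. The groups overlap.

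Retn encodes resistin, a hormone that rodent fat cells secrete. Its probe at 156 gave 2.34, 2.93, 3.13 and 3.35, and the probe at 194, which shares 22 bases with it, gave 4.16, 3.19, 2.74 and 1.77, in the same order of arrays. The probes put the arrays in opposite orders, and neither was well above background anywhere.

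Cfd encodes adipsin, or complement factor D, the protease that cleaves factor B. Its signal was 10.9 on control 1, 4.13 on control 2, 13.3 on LB1 1 and 6.06 on LB1 2. Both arrays of slide 1 were higher than both arrays of slide 2, and the spot was not well above background on any of them.

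Of the proteins on the droplet, Plin1 encodes perilipin 1, which coats the droplet of fat cells and controls access of lipases to it. It gave 7.89, 9.004, 8.03 and 3.13 on control 1, control 2, LB1 1 and LB1 2, and was not well above background on any. Cidea, a CIDE protein of brown fat that also appears in steatotic liver, gave 10.9, 18.2, 7.40 and 3.68. It was well above background on control 2 alone, and so was not tested.

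Plin4 encodes perilipin 4, which coats small nascent droplets. Its signal was 345 on control 1, 232 on control 2, 140.1 on LB1 1 and 142 on LB1 2, so that both LB1 arrays were dimmer before scaling. After scaling both LB1 arrays lay above both controls. The difference was 0.92 (SE 0.39, adjusted p = 0.126 by limma, n = 2 per group), and it was 0.19 within slide 1 and 1.65 within slide 2. It stayed above 0 in all 17 alternative values and passed the test in 2 of them.

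Cidec encodes FSP27, which fuses droplets into larger ones in white fat and in fatty liver. The probe gave 326 on control 1, 369 on control 2, 172 on LB1 1 and 93.3 on LB1 2. Both scaled LB1 values again lay above both controls, by 0.47 (SE 0.21, adjusted p = 0.141 by limma, n = 2 per group), with 0.56 within slide 1 and 0.37 within slide 2. With the array median as reference the difference was -0.17. It did not pass the test in any of the 17 alternative values.

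Fabp4 encodes the fatty acid binding protein of fat cells, which macrophages and capillary endothelium make as well. All 3 of its probes had differences below 0. The probe at 391 gave 2272 on control 1, 2305 on control 2, 552 on LB1 1 and 235 on LB1 2, a scaled difference of -0.74 (SE 0.24, adjusted p = 0.0658 by limma, n = 2 per group). The probe at 472 gave 2376, 2476, 737 and 342, a scaled difference of -0.35 (SE 0.22, adjusted p = 0.257 by limma, n = 2 per group).

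Neither of these bright Fabp4 probes passed the test, and for both the LB1 arrays lay below both controls after scaling. Within slides 1 and 2 the probe at 391 differed by -0.56 and -0.93 and the probe at 472 by -0.20 and -0.49. Both stayed below 0 in all 17 alternative values. The probe at 391 passed the test in 6 of them and the probe at 472 in 3. Both passed with the array median as reference, at -1.38 and -0.98, with normexp, at -1.04 and -0.80, and with the submitters' rounded mean signals, at -0.93 and -0.61. These settings also called more of all 22969 tested probes lower: 7125, 4643 and 3758, against 3030 in the main setting.

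The Fabp4 probe at 75, near the start of the transcript, was dim: 48.2 on control 1, 41.5 on control 2, 5.37 on LB1 1 and 2.52 on LB1 2. The probe entered the test through the control arrays alone, where it is high, and neither LB1 array had it well above background. Its fitted difference of -1.68 (adjusted p = 0.0212 by limma, n = 2 per group) is therefore only a bound, at least 1.22-fold lower in LB1. With normexp it was 1.095 and with the rounded mean signals it was 0.66, both past the test in the other direction. Without control 1 or control 2 it was not called (adjusted p = 0.0905 and 0.133 by limma). The offset that normexp added, 50, exceeds its signal on every array.

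Probes nearer the start and nearer the end of a transcript were compared over all genes. In 2452 transcripts with probes at least 300 bases apart, the log2 signal of the probe nearer the start minus that nearer the end had a median of -1.44 and -1.43 on the control arrays and -1.51 on each LB1 array. The difference was lower in LB1 in 54.1% of them, with a median of -0.14. Its part in the Fabp4 probes was not tested.

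Lipe encodes hormone-sensitive lipase, which cleaves diacylglycerol in fat cells and cholesterol esters in other tissues. Its probe at 2085 gave 109 on control 1, 143 on control 2, 77.8 on LB1 1 and 49.7 on LB1 2. Both scaled LB1 values lay above both controls, by 0.92 (SE 0.25, adjusted p = 0.0455 by limma, n = 2 per group), with 0.99 within slide 1 and 0.84 within slide 2. The adjusted p was 0.0502 with the slide as replicate block and 0.076 under quantile normalization. The array median as reference gave 0.28 (adjusted p = 0.623 by limma). Without either control array, or without LB1 replicate 2, where it was 0.81 (adjusted p = 0.0861), it was not called.

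The other Lipe probe of the same transcript, at 2231, gave 105.5 on control 1, 124 on control 2, 68.2 on LB1 1 and 18.4 on LB1 2. Its difference was 0.23 (SE 0.39, adjusted p = 0.664 by limma, n = 2 per group), 0.86 within slide 1 and -0.39 within slide 2. The probes thus had like differences on slide 1 and opposite signs on slide 2. The third Lipe probe, under the clone name, gave 2.02, 2.02, 2.38 and 1.65 and was not above background on any array. It lies at chr7:26182789-26182848, away from the other probes.

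**Figure D2:**
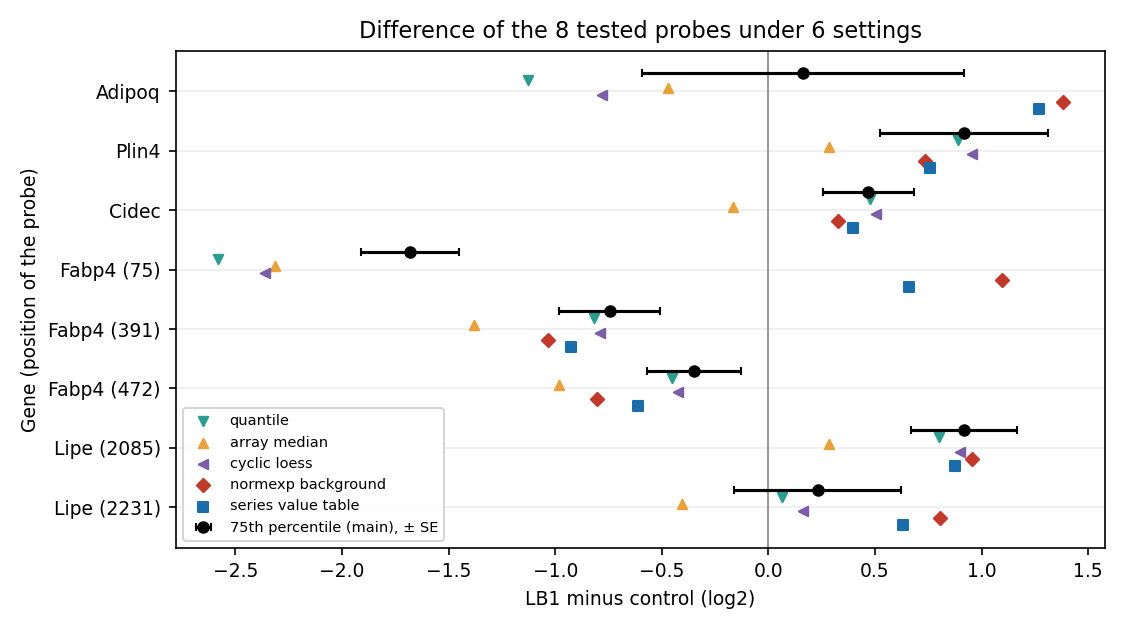
LB1 minus control (log2) of the 8 tested probes under 6 settings of background and scaling; black circles are the main values with their SE (n = 2 arrays per group). The Fabp4 probes at 391 and 472 lie left of 0 under every setting shown, Plin4 and the Lipe probe at 2085 lie right of it, and Adipoq and the Fabp4 probe at 75 lie on both sides.

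Where the filter on background was left out, 7 of the 15 probes were called higher and 1 lower, beside 42.6% and 7.59% of all 41174 probes. The probes called higher were those of Lep, Retn, Cfd and Plin1, the Lipe probe at 2085 and the Lipe probe of the clone name. For Lep the unfiltered difference was 1.96 (adjusted p = 0.006 by limma), whereas its signals before scaling stood in a ratio of 1.04, LB1 over control, and the negative control spots moved by 1.86. The unfiltered differences of Retn were 2.23 and 1.20, that of Cfd 2.34 and that of Plin1 1.17, on either side of this shift of spots without a target. Other dim probes lay below it: Cidea at 0.49, Adipoq at 0.16 and the Fabp4 probe at 75 at -1.68.

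Over the 5 tested genes the median difference was 0.47, beside 0.29 over all 15781 tested genes. After scaling, the LB1 arrays lay above both controls in 3 of the 8 tested probes and below both in 3, beside 43.8% and 32.3% of all tested probes. By gene, they lay above both controls in 3 of 5, Plin4, Cidec and Lipe, and below both in 1, Fabp4, beside 49.2% and 27.5% of all tested genes.

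Other genes of fat cells, chosen as a list, were as mixed. Of 16 genes, 15 were on the array and 8 were tested, and 6 were not well above background on any array. Slc2a4, the insulin-responsive glucose transporter GLUT4, gave 47.7, 62.8, 46.3 and 30.6 on control 1, control 2, LB1 1 and LB1 2. After scaling it was higher in LB1 by 1.38 (SE 0.26, adjusted p = 0.0247 by limma). Its signals before scaling stood in a ratio of 0.69, LB1 over control. It missed the threshold under quantile normalization (adjusted p = 0.0511 by limma). Ffar4, a fatty acid receptor, gave 19.0, 30.4, 3.42 and 2.40 and was called lower (adjusted p = 0.0474 by limma). It was below background on both LB1 arrays, whose scaled floor lay above the controls, so that no fold can be given, and its sign turned with normexp. Lpl, lipoprotein lipase, differed by -0.83 (adjusted p = 0.0711 by limma). Pparg, the master regulator of fat cells, differed by 0.21 (adjusted p = 0.46 by limma), with the sign turned by normexp. The median of the list was 0.27.

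Of 9 genes of brown fat cells, 3 were tested and all 3 were called higher, beside 21.7% of all tested genes. Ucp1, which uncouples respiration in brown fat, was at background, with 2.67, 2.71, 5.26 and 2.09. Elovl3, a fatty acid elongase of brown fat that liver also makes, gave 319, 233, 367 and 654 and was higher by 2.77 (SE 0.59, adjusted p = 0.03 by limma), 1.69 within slide 1 and 3.85 within slide 2. Fabp3, of heart and muscle, and Cox7a1, a muscle form of a respiratory chain subunit, were higher by 2.46 and 1.38 (adjusted p = 0.0339 and 0.0433 by limma), and both missed the threshold under quantile normalization (adjusted p = 0.111 and 0.0513). Of 12 striated muscle markers, 5 were tested and 3 were called higher, beside 21.7% of all tested genes. Acta1 was higher at least 6.86-fold, Tnnc2 by 1.95 and Myl7 by 5.65. Before scaling the signals of Tnnc2 and Myl7 stood in ratios of 1.02 and 13.3, LB1 over control, and the negative control spots moved by 1.86. Acta1 entered the test through the LB1 arrays alone, where it is high. Mylpf and Actc1 did not pass, at 0.31 and 0.84 (adjusted p = 0.329 and 0.312 by limma). The list had 4 genes that were not well above background on any array. The part of muscle RNA in Fabp3 and Cox7a1 was not tested.

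Genes of the hepatocyte's own droplets, 20 in all, had 19 tested, of which 2 were called higher and 4 lower, beside 21.7% and 9.78% of all tested genes, with a median of -0.41. Without LB1 replicate 1, 8 were lower. Hsd17b13, a droplet enzyme of hepatocytes, gave 12120 and 12265 in the controls and 1082 and 350.5 in LB1 and was lower at -2.39 (SE 0.32, adjusted p = 0.0212 by limma). Abhd5, the activator of the triglyceride lipase ATGL, was lower at -2.28 (SE 0.35, adjusted p = 0.0218 by limma). Dgat2, which makes triglyceride, was higher by 1.49 (adjusted p = 0.0217 by limma) with both controls saturated, so that this difference is only an upper limit. The usual droplet coats did not pass the test. Plin2 differed by 0.67 (adjusted p = 0.135), with a saturated control spot, and Plin5 by 0.27 (adjusted p = 0.417), both turned by quantile normalization. Cideb, which hepatocytes use to build lipoproteins, differed by -0.30 (adjusted p = 0.331).

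Receptors of fat cell hormones, known or proposed, were tested, 5 of 5. Of them 0 were called higher and 1 lower, beside 21.7% and 9.78% of all tested genes. Cdh13 differed by -0.23 (adjusted p = 0.586 by limma). Adipor1 differed by -0.25 (adjusted p = 0.414) and Adipor2 by 0.47 (adjusted p = 0.149) with both controls saturated. Cap1, proposed as a resistin receptor, differed by -1.31 (adjusted p = 0.0524). Lepr, the leptin receptor, was at least 1.51-fold lower in LB1, where it was not well above background (51.8 and 59.9 against 4.08 and 2.27, adjusted p = 0.0201 by limma). Lepr entered the test through the control arrays alone, where it is high, and it was higher by 0.87 with normexp. Of the alternative complement pathway, which adipsin activates, C3 was saturated on all 4 arrays, which leaves no fold. Cfb was higher by 1.27 with saturated controls, so that this is an upper limit, and Cfp, properdin, was higher by 1.11 (adjusted p = 0.0427 by limma). Cfb turned to -0.26 with quantile normalization.

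Markers of tissues that could lie on a liver sample were read as well. Mesothelium, which lines the outside of liver and of abdominal fat, had 8 of its 9 tested genes of 12 higher in LB1, and 2 of 9 without LB1 replicate 2. Msln, mesothelin, gave 222, 22.96, 922 and 1669 on control 1, control 2, LB1 1 and LB1 2, higher by 6.04 (SE 1.19, adjusted p = 0.0266 by limma). Nkain4, Muc16 and Lrrn4 were higher too, Lrrn4 at least 8.13-fold. Of all tested genes, 21.7% were called higher. Msln, Gpm6a and Efemp1 were the 3 tested genes of the list well above background on all 4 arrays, and all were called higher. The others entered the test through the LB1 arrays alone, where they are high. The scaled levels of the list's probes summed to 3.20 on control 1, 1.54 on control 2, 16.8 on LB1 1 and 52.0 on LB1 2. The scaled Adipoq level was -4.35, -4.99, -3.40 and -5.61 in the same order of arrays. LB1 2 thus had the highest mesothelial sum and the lowest Adipoq value. Adipoq was not well above background there, so that its level on LB1 2 is not known. On the other 3 arrays the orders were the same. The sums add levels of different probes, which cannot be compared, and 4 arrays cannot set an order. The part of attached tissue in the Adipoq signal was not tested.

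Fibroblast and preadipocyte markers had 4 of 9 tested genes higher and 1 lower, beside 21.7% and 9.78% of all tested genes. Of the 4 that did not pass, Pdgfra, Dpp4 and Lum differed by -0.07, -0.34 and -0.41, and Dcn by 0.43. Ly6a was lower at -0.93 (adjusted p = 0.0385 by limma). Pi16, Cd34 and Col1a1 were higher by 1.99, 2.37 and 1.68. Before scaling their signals stood in ratios of 1.05, 1.37 and 0.85, LB1 over control, and the negative control spots moved by 1.86. Without LB1 replicate 2, 2 were higher.

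Of the cell types that also make Fabp4, macrophage markers had 2 of 10 tested genes lower and 0 higher by limma, beside 9.78% and 21.7% of all tested genes. Vsig4, of Kupffer cells, was lower at -1.59 (SE 0.23, adjusted p = 0.0212 by limma), Cd14 at -0.78 (adjusted p = 0.0492, and 0.0716 with the slide as replicate block), and Adgre1 differed by -0.69 (adjusted p = 0.0662). The Kupffer cell markers Clec4f, Marco and Timd4 differed the other way, by 0.64, 0.40 and 0.21 (adjusted p = 0.0721, 0.606 and 0.461 by limma). Cd68, Csf1r, Cd5l and Lyz2 differed by -0.61, -0.36, -0.27 and -0.02 and did not pass the test. The median of the list was -0.31, beside 0.29 over all tested genes. With a trended robust variance, and with the filter for all 4 arrays, 1 macrophage gene was called higher and 3 lower. Without LB1 replicate 1, 4 were lower, and without LB1 replicate 2, 1 was. Endothelial markers had 1 of 12 higher, Cdh5 by 0.90 (adjusted p = 0.0393, and 0.0533 with the slide as replicate block), and 1 lower, Tek at -1.57, which was 0.03 with normexp. The endothelial counts lie near or below the shares of all tested genes. Without LB1 replicate 1, 2 were higher and 4 lower. Stab2, of sinusoidal endothelium, differed by -0.92 (adjusted p = 0.0526). Their part in Fabp4 was not tested, and in liver tissue fewer cells of a type and less RNA per cell cannot be told apart.

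Exocrine pancreas had 3 of 6 tested genes higher and 1 lower, beside 21.7% and 9.78% of all tested genes. Amy2a5 was lower at -2.48, Ctrl was higher by 2.02 and Clps at least 9.14-fold. The signals of Ctrl before scaling stood in a ratio of 1.07, LB1 over control, and the negative control spots moved by 1.86. Clps entered the test through the LB1 arrays alone, where it is high. Neutrophil markers had 1 of 5 higher, Mpo by 2.01, beside 21.7% of all tested genes. The signals of Mpo before scaling stood in a ratio of 1.06, LB1 over control. S100a9 and S100a8 differed by 1.67 and 1.75 (adjusted p = 0.0726 and 0.0753 by limma) and passed with the slide as replicate block (adjusted p = 0.038 and 0.048), which gave 3 of 5 higher, as did leaving out LB1 replicate 1. The liver itself was plain in all arrays: all 13 hepatocyte markers were tested, and Alb was saturated on all 4 arrays at 72149, 71130, 72932 and 70387. Beside 21.7% and 9.78% of all tested genes, 6 hepatocyte genes were called higher and 1 lower. The 6 were saturated on both control arrays. For Apoa1 and Trf the difference is therefore only an upper limit. Alb, Apoa2, Fgb and Ahsg were saturated on all 4 arrays, which leaves no fold. Cps1 of the urea cycle was lower at -1.24 (adjusted p = 0.0265 by limma). Under quantile normalization 0 were higher and 3 lower.

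**Figure D3:**
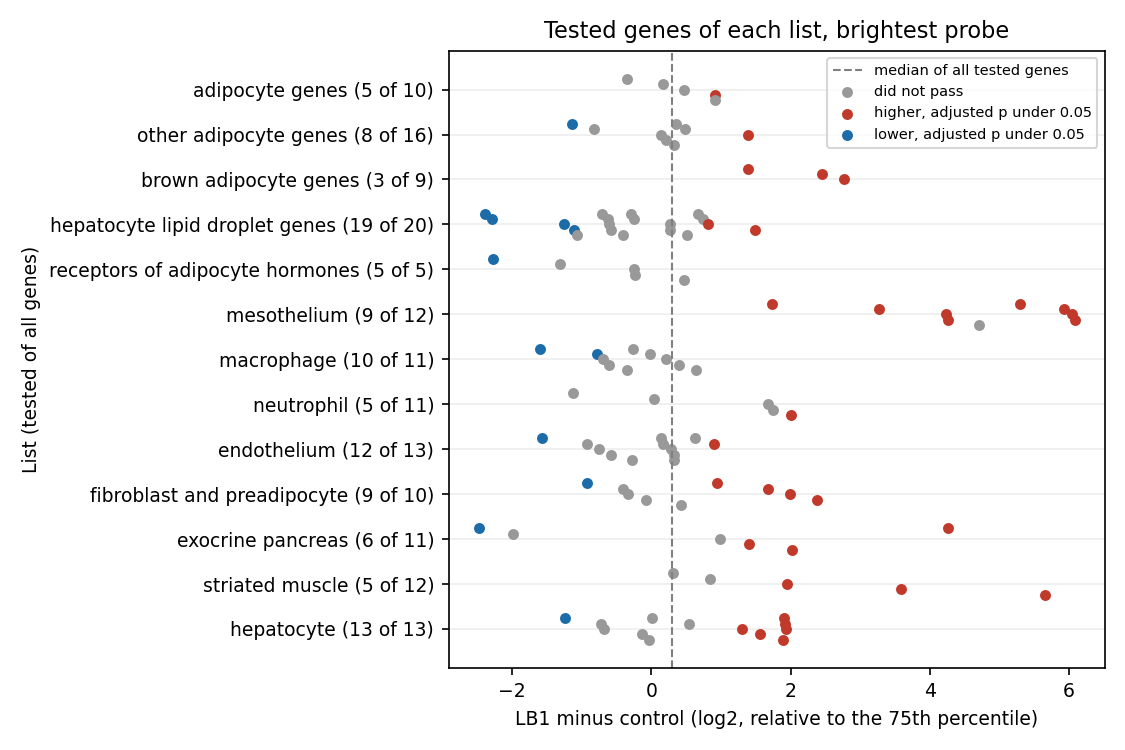
LB1 minus control (log2, after subtracting each array's 75th percentile) of every tested gene by its brightest probe, 1 row per list other than complement, with the number tested of all its genes; red points were called higher, blue lower, grey did not pass, and the dashed line is the median of all tested genes, 0.29. The tested adipocyte genes lie between -0.35 and 0.92, and the mesothelial genes between 1.74 and 6.09.

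The genes whose pattern over the 4 arrays was most like that of Adipoq, among 12854 named candidates and by Euclidean distance of the centred log2 values, were Adcy3 at 0.15, Leo1 at 0.28, Serpina3f and Fancd2 at 0.32 and Cntn2 at 0.34. With 4 arrays, 44 genes lay within 0.5. Of the 5, all but Leo1 were not well above background on LB1 2, as Adipoq was.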

How the data were processed

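Liver RNA of 4 mice was measured on 4 Agilent arrays with 1 dye. The deposited scanner files hold spot intensity which, per the file headers, came from Feature Extraction 10.5.1.1, with background removed and detrending within each array but nothing between arrays. The design text names another version. The value table of the series is, per its deposited values, each spot's mean intensity as a whole number: each value lay within 0.5 of that spot's mean signal. Its column medians were 70.0 and 65.0 (control) and 62.0 and 45.0 (LB1).

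Control and outlier spots were left out. The processed signal was put on the log2 scale, set relative to the 75th percentile of its array's 43379 spots, and averaged where a probe is printed more than once. Groups come from the labels. The groups were compared in R 4.3.3 with limma 3.58.1 (lmFit, eBayes) and Benjamini-Hochberg adjustment over the 22969 probes tested. Names come from the files' accession or symbol through RefSeq (GRCm38.p6); 24844 probes matched by accession, 6045 by current symbol and 1810 by an older symbol, and the files' name was kept for 8475. Coordinates are the files', on mm9, counted from 1. Where neither array of a group had a probe well above background, the fold is a bound: each dim array counts with its lowest well-detected signal, or with the probe's own signal if that is higher, and the group means are then compared on the log2 scale. The scripts were tested on simulated data.

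The 10 genes and the other lists were chosen with earlier results of these data known. Named are all their probes, of each other list the 3 tested genes with the smallest p and a few set by name, and the 5 genes nearest to Adipoq; the dimmest and brightest markers, which the rule also named, are left out because levels of different probes cannot be compared. Cfp, Cps1, Clec4f, Marco, Timd4 and the genes whose call the slide block changed were named after their values were seen. So were Gpm6a, Efemp1, Mylpf, Actc1, Pdgfra, Dpp4, Lum, Dcn, Cdh13, Cd68, Csf1r, Cd5l and Lyz2. The complement list is given without counts, and 1 result is not reported here. Alternatives changed background correction, scaling, filter, variance model, test, probe choice, slide and each array in turn. Same-numbered arrays share a slide, which the labels do not call a batch; their deviations from the group means correlated at 0.151 over 22957 probes.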

Additional observations from a re-analysis of the deposited data

How the results depend on the processing

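Over all tested probes the calls, 4407 higher and 3030 lower, moved with the setting. Normexp gave 11347 and 4643, quantile normalization 2451 higher, the array median 1654 and 7125, cyclic loess 2901 higher, no filter 17556 higher and the rounded mean signals gave 10689 higher. The share of calls that were higher was 59.3% in the main setting, 71% with normexp, 74% with the rounded mean signals, 38.2% with quantile normalization, 42% with cyclic loess and 18.8% with the array median; the median of all probes was 0.16, 0.44 with normexp and -0.47 with the array median. The methods' t-test with 2-fold gave 2228 and 1881, and 0 after Benjamini-Hochberg. Leaving out 1 array gave 0 to 6010 higher and 1 to 5018 lower: 125 and 14 without control 1, and 0 and 1 without control 2, where a lone array is assumed to vary like the other group.

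Of the adipocyte genes, 1 was called higher and 0 lower. Normexp gave 2 and 1, the rounded mean signals gave 3 and 1, the array median 0 and 1, the mean over a gene's probes 0 and 1, and no filter 5 higher. Quantile normalization, cyclic loess, the slide as replicate block and the methods' t-test, with 2-fold and after adjustment, gave 0 higher. The tested genes differed by -0.35 to 0.92, short of 2-fold, so that the count with 2-fold was fixed by that cut. Leaving out 1 array gave 0 to 2 higher. Adipoq turned to -1.13 with quantile normalization, -0.47 with the array median, -0.78 with cyclic loess and -0.62 within slide 2, and ranged from -0.94 to 1.27 with 1 array left out, with -0.16 without control 2 and -0.94 without LB1 1. The Fabp4 probe at 75 turned to 1.095 with normexp and 0.66 with the rounded mean signals. Cidec turned to -0.17 with the array median, and the Lipe probe at 2231 to -0.40 there, to -0.39 within slide 2 and to -0.28 without LB1 1, within -0.28 to 0.75 with 1 array left out. The block changed the call of Lipe alone among the adipocyte genes. In the other lists it ended the calls of Mgll, Cd14, Cdh5, Ly6a and Col3a1 and added Upk3b, S100a8, S100a9 and Cela1.

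Of the other adipocyte genes, 1 higher and 1 lower became 4 higher with normexp and with the rounded mean signals, 5 higher without a filter, 0 higher with quantile normalization, 0 higher and 2 lower with the array median, and 0 lower with the methods' t-test at 2-fold (0 and 0 after adjustment). With 1 array left out they were 0 to 1 in each direction. Of the hepatocyte droplet genes, 2 higher and 4 lower became 8 lower with normexp and with the rounded mean signals, 7 lower with a trended robust variance, 0 higher with quantile normalization and with cyclic loess, 0 higher and 10 lower with the array median, 1 higher with the slide as replicate block and with the methods' t-test at 2-fold, and 0 and 0 after its adjustment. With 1 array left out they were 0 to 3 higher and 0 to 8 lower. The causes were not tested, except that the unfiltered fit tests more probes and leaving out an array uses fewer arrays.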
